A study of Homo sapiens with 29 samples.

Results

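The PI3K-AKT group described here holds 9 genes, chosen by name as components or brakes of the pathway: PIK3CD, PIK3R1, PIK3AP1, PIK3IP1, TCL1A, AKT1, DEPTOR, IRS2 and INSR. The choice was made with earlier results of these data known. All probe sets annotated to one of these symbols were taken, which gave 14 probe sets of 8 genes, out of 22277 probe sets and 12165 genes in all. The annotation used here lists no probe set with the single symbol PIK3AP1, so that adaptor was not analysed here. The values are log2 expression levels on high-throughput Affymetrix human arrays, each summarised over the probes of a set by RMA. They were measured in DHL4 and DHL6, a pair of established human diffuse large B-cell lymphoma lines grown in RPMI medium. One group of each line received only the solvent DMSO (2 arrays of DHL4, 3 of DHL6), and 4 groups of each line received 1 µM R406, which inhibits the tyrosine kinase SYK, for 2, 6, 24 or 48 h (3 arrays each). The labels name no genetic change in either line. The 29 arrays thus form 10 groups.

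In B cells, SYK passes the signal of the B-cell receptor to adaptors that recruit phosphatidylinositol 3-kinase (PI3K), whose delta catalytic subunit is made from PIK3CD and held in a complex with regulatory subunits such as that of PIK3R1. The lipid that PI3K makes brings the kinase AKT to the membrane, where it is activated. AKT restrains FOXO transcription factors by phosphorylation and promotes growth through mTOR complexes, while proteins such as those of PIK3IP1 and DEPTOR act as brakes at PI3K and at mTOR.

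Of the 8 measured genes, 4 changed in R406 and 4 were not called at any time in either line. PIK3CD, PIK3IP1 and TCL1A were higher in R406 than in DMSO in both lines, PIK3CD by 2.88-fold in DHL4 and 3.37-fold in DHL6 at 24 h, PIK3IP1 by 10.4-fold and 2.59-fold, and TCL1A by 5.61-fold and 5.89-fold. DEPTOR moved in opposite directions at 24 h: it was 9.10-fold lower in DHL4 and 2.01-fold higher in DHL6. PIK3R1, AKT1, IRS2 and INSR were the genes without a call. A call means an adjusted p below 0.05 in limma's moderated test, adjusted over all 12165 genes by the Benjamini-Hochberg method within each contrast. Differences below are log2 differences ± the standard error (SE) of that fit.

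The sequences upstream of the 3 genes that were higher in both lines are shown because their levels moved together, and they were searched for the forkhead motif GTAAACA, which FOXO factors can bind, and for the related CAAAACA. They are RefSeq promoter windows of the build GRCh38.p14, written 5′ to 3′ along the gene's strand, with any match in capitals. The PIK3CD stretch is chr1:9651481-9651730 (plus strand, 250 bases before the first of 3 listed starts). Its capitals mark CAAAACA on the opposite strand, at -226 from the start. The PIK3IP1 stretch is chr22:31292535-31292784 (minus strand, 250 bases before the first of 2 listed starts) and holds neither motif. The short PIK3IP1 stretch is chr22:31292454-31292483, and its capitals mark GTAAACA on the opposite strand, at +17 from the second start. The TCL1A stretch is chr14:95714126-95714375 (minus strand, 250 bases before its single listed start) and holds neither motif.
PIK3CD, upstream of start 1: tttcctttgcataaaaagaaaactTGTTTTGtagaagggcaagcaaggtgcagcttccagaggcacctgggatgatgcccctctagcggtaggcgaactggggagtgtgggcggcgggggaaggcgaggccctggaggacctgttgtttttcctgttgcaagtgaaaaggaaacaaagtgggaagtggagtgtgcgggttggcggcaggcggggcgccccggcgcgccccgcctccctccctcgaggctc
PIK3IP1, upstream of start 1: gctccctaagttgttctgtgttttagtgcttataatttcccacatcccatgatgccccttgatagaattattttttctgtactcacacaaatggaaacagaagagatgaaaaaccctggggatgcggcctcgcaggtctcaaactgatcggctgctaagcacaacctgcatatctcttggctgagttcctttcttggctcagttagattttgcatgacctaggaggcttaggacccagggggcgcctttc
PIK3IP1, near start 2: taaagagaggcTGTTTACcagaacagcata
TCL1A, upstream: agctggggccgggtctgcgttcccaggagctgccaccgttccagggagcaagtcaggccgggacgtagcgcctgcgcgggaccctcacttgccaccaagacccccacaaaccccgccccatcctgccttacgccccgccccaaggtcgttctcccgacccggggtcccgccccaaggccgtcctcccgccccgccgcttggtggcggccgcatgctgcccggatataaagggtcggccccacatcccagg
The table used matched 8 of the 9 genes with 15 windows of 250 bases before to 50 bases after a start, DEPTOR being the exception. GTAAACA stood in 1 of these windows, that of PIK3IP1, against 3.42% of all 35116 windows in the table. CAAAACA stood in 2 windows, those of PIK3CD and IRS2, against 4.92% of all windows. Both strands were searched, and the 2 motifs cannot overlap at the same position.

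The arrays of a group correlated at r between 0.978 and 0.996 across genes, and 0 pairs held identical values. B-cell markers fitted the label in 6 of the 7 measured (MS4A1, CD79A, CD79B, BLK, BCL6 and MME). The means of these 6 lay above the median of all deposited values in every group, while PAX5 stayed between 2.51 and 3.36. The 9 T-cell markers summed to 24.5 to 27.4, with no marker above 3.95 (CD28) on any array, and the 7 measured monocyte markers to 19.4 to 23.4, with no marker above 4.45 (FCGR1A), where the median of all deposited values was 3.18. Both sums were highest on an array of DHL6 at 48 h, a group in which the monocyte sum ran from 19.8 to 23.4, against at most 21.2 in every other group. The 8 fibroblast and endothelial markers summed to 27.0 to 31.0 in DHL4 and 21.9 to 23.7 in DHL6, of which DCN accounted for 8.43 against 2.78 in DMSO and PECAM1 for up to 7.77, while COL1A1, COL1A2, COL3A1, LUM, VWF and CDH5 stayed low. The 3′ minus 5′ signal of the actin control probe sets was 1.25 to 1.67 on all DHL4 arrays, but in DHL6 it went from 1.31 to 1.57 in DMSO to 2.16 to 2.43 at 48 h. The part of these differences in any result was not tested. It is not stated that replicate arrays come from separate cultures, so the p-values measure only how these arrays spread, which may be technical, and the number of arrays limits the precision.

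PIK3CD encodes the catalytic PI3K subunit that is enriched in leukocytes. Its probe set 203879_at read 7.28 and 7.15 on the DHL4 DMSO arrays, then 8.10, 7.88 and 7.61 after 2 h of R406, 8.48, 8.57 and 8.36 after 6 h, 8.72, 8.72 and 8.79 after 24 h, and 7.70, 7.67 and 7.53 after 48 h. Every R406 array was above both DMSO arrays, and the 24 h arrays stood above all others of the line. In DHL6 it read 6.62, 6.74 and 6.58 in DMSO, 7.50, 7.17 and 7.54 at 2 h, 8.17, 8.24 and 8.02 at 6 h, 8.51, 8.34 and 8.34 at 24 h, and 8.15, 7.85 and 8.24 at 48 h. Here too no R406 array overlapped DMSO, and the 48 h arrays remained far above it. In DHL4 the difference from DMSO was 0.65 ± 0.14 at 2 h (limma adjusted p = 0.00234), 1.25 ± 0.14 at 6 h (2.66e-07) and 1.53 ± 0.14 at 24 h (1.98e-09). At 48 h it was 0.42 ± 0.14, which was not called (limma adjusted p = 0.0681). In DHL6 it was 0.76 ± 0.12 at 2 h (limma adjusted p = 0.000187), 1.50 ± 0.12 at 6 h (3.39e-09), 1.75 ± 0.12 at 24 h (1.80e-10) and 1.44 ± 0.12 at 48 h (5.87e-09). The DMSO arrays carry no time label and serve all 4 times of a line, so R406 and time in culture cannot be told apart in these differences, and the times are not independent of each other. In these bulk samples, fewer cells of a type and less RNA per cell cannot be told apart either.

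Ordered by group mean, PIK3CD was highest in DHL4 at 24 h (8.74 ± 0.04, SD, n = 3) and lowest in DHL6 in DMSO (6.65 ± 0.08, SD, n = 3). Of the 9 neighbouring pairs of groups in this order, 6 overlapped and 3 did not: DHL4 at 24 h above DHL4 at 6 h, DHL6 at 24 h above DHL6 at 6 h, and DHL4 DMSO above DHL6 DMSO. Such pairs were not counted over all genes. The counts given here and for the genes below therefore have no background beside them and only describe the order. Without the second DHL4 DMSO array, or in a fit of only the compared groups, the 2 h difference in DHL4 was 0.58 and 0.65 and lost its call (limma adjusted p = 0.0526 and 0.0960). The second PIK3CD probe set, 211230_s_at, read only 2.69 to 3.31 and lay under the median of all deposited values (3.18) on 28 of 29 arrays. It was not called in any contrast.

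**Figure D1:**
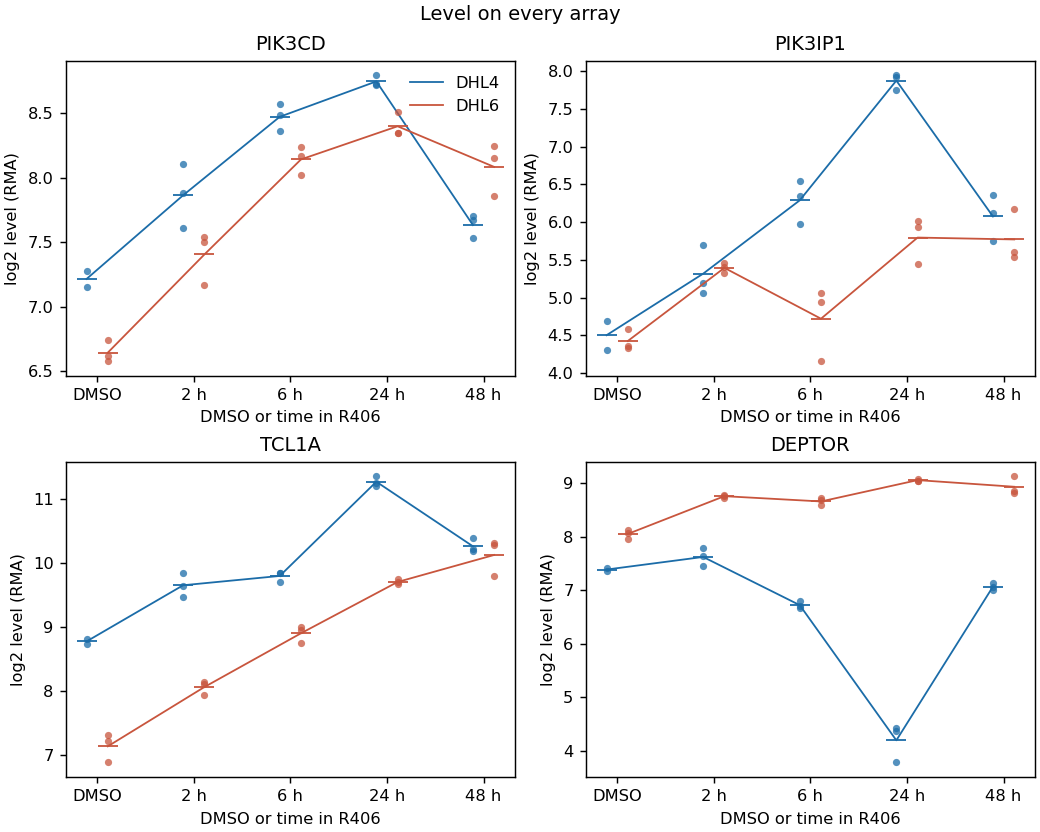
Log2 level (vertical axis, RMA, a separate range in each panel) of PIK3CD, PIK3IP1, TCL1A and DEPTOR on every array, in DMSO and at each R406 time (horizontal axis), with DHL4 in blue and DHL6 in red; points are arrays and bars are group means, joined by lines. PIK3CD, PIK3IP1 and TCL1A peak in DHL4 at 24 h, at means of 8.74, 7.88 and 11.26, while DEPTOR has its low point there at 4.20.

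PIK3R1 encodes the p85-alpha regulatory subunit that stabilises the catalytic subunits and keeps them inactive until recruitment. Its probe set 212239_at ranged from 4.98 to 6.65 over the 29 arrays, with a median of 6.10. The 8 differences from DMSO ran from -0.52 to 0.29, with model intervals reaching from -0.99 to 0.81 at a confidence of 95%, and limma called 0 of them (1 at an unadjusted p below 0.05, in DHL6 at 48 h). That DHL6 value at 48 h was -0.52 ± 0.23 (limma adjusted p = 0.104), and without the second 48 h array it became -0.86 and was called (0.00270). The 2 other PIK3R1 probe sets, 212240_s_at (4.44 to 6.28) and 212249_at (2.67 to 4.20), were not called against DMSO at any time either. The catalytic subunit PIK3CD thus moved by up to 1.75 while its partner stayed within these limits.

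PIK3IP1 encodes a transmembrane protein that binds PI3K and lowers its activity. In DHL4 its probe set 221756_at read 4.69 and 4.31 in DMSO, 5.70, 5.19 and 5.06 at 2 h, 6.35, 6.55 and 5.97 at 6 h, 7.76, 7.94 and 7.93 at 24 h, and 5.75, 6.12 and 6.36 at 48 h. All R406 arrays stood above both DMSO arrays, and those at 24 h above every other array. In DHL6 it read 4.33, 4.35 and 4.58 in DMSO, 5.32, 5.41 and 5.45 at 2 h, 5.06, 4.94 and 4.15 at 6 h, 6.01, 5.93 and 5.45 at 24 h, and 5.60, 5.54 and 6.17 at 48 h. The 6 h arrays overlapped DMSO, whereas those at the other times did not. In DHL4 the difference from DMSO was 0.82 ± 0.25 at 2 h (limma adjusted p = 0.0380), 1.79 ± 0.25 at 6 h (9.18e-06), 3.37 ± 0.25 at 24 h (5.45e-11) and 1.57 ± 0.25 at 48 h (0.000136). In DHL6 it was 0.97 ± 0.22 at 2 h (limma adjusted p = 0.00718), 0.30 ± 0.22 at 6 h (0.559, not called), 1.37 ± 0.22 at 24 h (7.35e-05) and 1.35 ± 0.22 at 48 h (6.97e-05). The 2 h call in DHL4 was lost in the fit of only the compared groups (limma adjusted p = 0.103), and without either DHL4 DMSO array or the first 2 h array, with values from 0.62 to 1.01. Averaging the probe sets gave 0.40 at that time (limma adjusted p = 0.252), and the fit with the replicate number as a block gave 0.85 (0.0699).

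The second PIK3IP1 probe set, 221757_at, was dimmer (2.70 to 5.66) and followed the first only in part. In DHL4 its differences were -0.01, 1.23, 2.13 and 0.99 at 2, 6, 24 and 48 h, of which those at 6, 24 and 48 h were called. In DHL6 they were 0.38, 0.19, 0.20 and 0.36, and limma called 0 of these 4, with 0 at an unadjusted p below 0.05, although the arrays at 2 and 48 h did not overlap DMSO. In this fit of 22215 probe sets, limma called 8.04% of them in DHL4 at 2 h, 10.6% at 6 h, 26.0% at 24 h and 6.32% at 48 h, and 4.37%, 6.89%, 12.4% and 20.3% in DHL6. The calls in DHL6 therefore rest on 1 probe set, as does the DHL4 rise at 2 h. Of the 9 neighbouring pairs in the order of PIK3IP1 group means, from 7.88 ± 0.10 (SD, n = 3) in DHL4 at 24 h down to 4.42 ± 0.14 (SD, n = 3) in DHL6 DMSO, 7 overlapped. The exceptions were DHL4 at 24 h above DHL4 at 6 h, and DHL6 at 48 h above DHL6 at 2 h.

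Upstream of PI3K, INSR encodes the insulin receptor and IRS2 an adaptor that links it to PI3K. INSR (207851_s_at) read 2.57 to 3.12 and lay under the median of all deposited values on all 29 arrays. Its 8 differences from DMSO ran from -0.18 to 0.11, and limma called 0 of them, with 0 at an unadjusted p below 0.05. IRS2 (209185_s_at) read 2.75 to 4.03, with 13 of 29 arrays under that median, and its differences ran from -0.23 to 0.32, with 0 called by limma and 0 at an unadjusted p below 0.05. The second IRS2 probe set, 209184_s_at, read 2.60 to 3.23. RMA compresses differences at such levels, and a fall from there could not be seen.

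AKT1 encodes the kinase itself. Its probe set 207163_s_at read 3.23 to 4.31 with a median of 3.64. The 8 differences from DMSO ran from -0.44 to 0.19, with model intervals from -0.81 to 0.56, and limma called 0 of them (1 at an unadjusted p below 0.05). The lowest adjusted p was that in DHL4 at 24 h, at -0.44 ± 0.18 (limma adjusted p = 0.0689). That value passed the threshold when arrays were centred on their medians (-0.52, limma adjusted p = 0.0319) and without the second 24 h array (-0.60, 0.0168).

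TCL1A encodes a small protein that binds AKT and enhances its activation, and it is expressed in immature and germinal centre B cells and in many B-cell tumours. In DHL4 its probe set 209995_s_at read 8.73 and 8.82 in DMSO, 9.64, 9.47 and 9.85 at 2 h, 9.85, 9.70 and 9.84 at 6 h, 11.24, 11.34 and 11.20 at 24 h, and 10.18, 10.21 and 10.38 at 48 h. No R406 array overlapped DMSO, the 2 h and 6 h arrays overlapped each other, and the 24 h arrays stood above the rest. In DHL6 it read 7.22, 7.31 and 6.89 in DMSO, 8.11, 8.15 and 7.94 at 2 h, 8.758, 8.996 and 8.952 at 6 h, 9.69, 9.67 and 9.74 at 24 h, and 10.27, 9.79 and 10.30 at 48 h. In this line no group overlapped any other, from the lowest in DMSO to the highest at 48 h. In DHL4 the difference from DMSO was 0.87 ± 0.14 at 2 h (limma adjusted p = 0.000144), 1.02 ± 0.14 at 6 h (1.08e-05), 2.49 ± 0.14 at 24 h (7.47e-13) and 1.48 ± 0.14 at 48 h (9.80e-08). In DHL6 it was 0.92 ± 0.13 at 2 h (limma adjusted p = 2.65e-05), 1.76 ± 0.13 at 6 h (4.87e-10), 2.56 ± 0.13 at 24 h (4.94e-13) and 2.98 ± 0.13 at 48 h (7.58e-14). The 48 h value in DHL6, 7.89-fold, ranked 9 by size among all rises of that contrast.

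The second TCL1A probe set, 39318_at, was called at all 4 times in both lines, with 0.67, 0.999, 2.39 and 1.46 in DHL4 and 0.76, 1.66, 2.37 and 2.72 in DHL6. Of the 9 neighbouring pairs in the order of TCL1A group means, 5 overlapped. The order ran from 11.26 ± 0.07 (SD, n = 3) in DHL4 at 24 h to 7.14 ± 0.22 (SD, n = 3) in DHL6 DMSO, and the DHL6 arrays at 6 h overlapped those of DHL4 in DMSO.

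**Figure D2:**
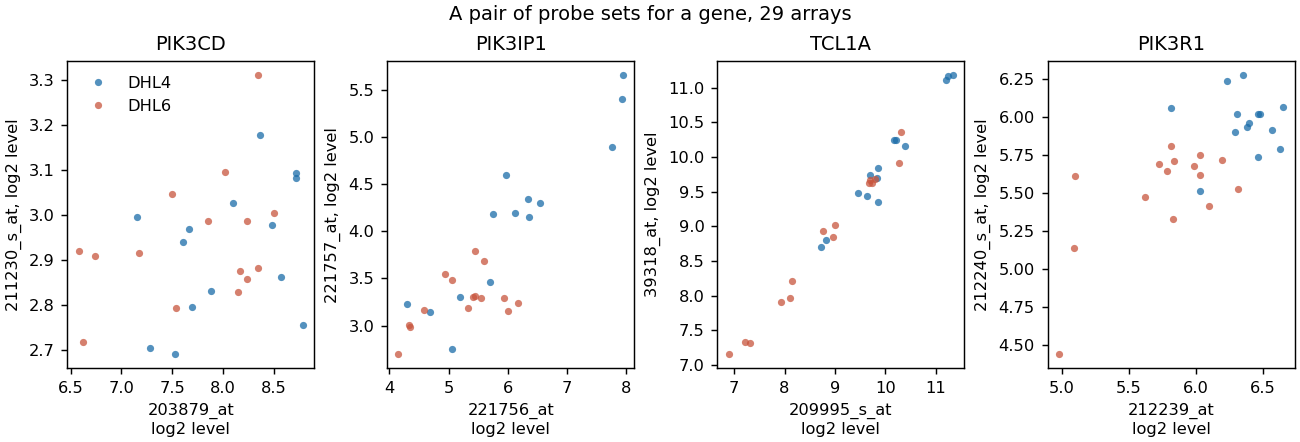
Log2 level of one probe set (horizontal axis) against another of the same gene (vertical axis) for PIK3CD, PIK3IP1, TCL1A and PIK3R1; each point is 1 of the 29 arrays, DHL4 in blue and DHL6 in red, and axis ranges differ between panels. The TCL1A probe sets follow a single line, whereas for PIK3CD the second stays between 2.69 and 3.31, and for PIK3IP1 the second reaches 5.66 in DHL4 and at most 3.79 in DHL6.

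DEPTOR encodes a protein that binds mTOR and inhibits both of its complexes. In DHL4 its probe set 218858_at read 7.42 and 7.35 in DMSO, 7.44, 7.79 and 7.63 at 2 h, 6.70, 6.66 and 6.81 at 6 h, 4.38, 4.43 and 3.79 at 24 h, and 7.142, 7.063 and 6.997 at 48 h. The 24 h arrays lay far below all others, and those at 48 h were again just under DMSO. In DHL6 it read 8.12, 7.96 and 8.07 in DMSO, 8.72, 8.78 and 8.77 at 2 h, 8.71, 8.67 and 8.58 at 6 h, 9.04, 9.04 and 9.08 at 24 h, and 8.81, 9.12 and 8.86 at 48 h. Every DHL6 R406 array was above every DHL6 DMSO array. In DHL4 the difference from DMSO was 0.24 ± 0.14 at 2 h (limma adjusted p = 0.365, not called), -0.66 ± 0.14 at 6 h (0.00149), -3.19 ± 0.14 at 24 h (6.59e-15) and -0.32 ± 0.14 at 48 h (0.223, not called). The value at 24 h ranked 17 by size among all falls of that contrast. In DHL6 it was 0.70 ± 0.13 at 2 h (limma adjusted p = 0.000567), 0.61 ± 0.13 at 6 h (0.00194), 1.00 ± 0.13 at 24 h (2.05e-06) and 0.88 ± 0.13 at 48 h (1.10e-05). Of the 9 neighbouring pairs in the order of DEPTOR group means, 1 overlapped, DHL6 at 24 h (9.05 ± 0.02, SD, n = 3) with DHL6 at 48 h. This count too has no share over all genes beside it. All DHL6 groups stood above all DHL4 groups, and DHL4 at 24 h was lowest (4.20 ± 0.36, SD, n = 3). A single probe set measured DEPTOR, so no second one could be set beside it.

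**Figure D3:**
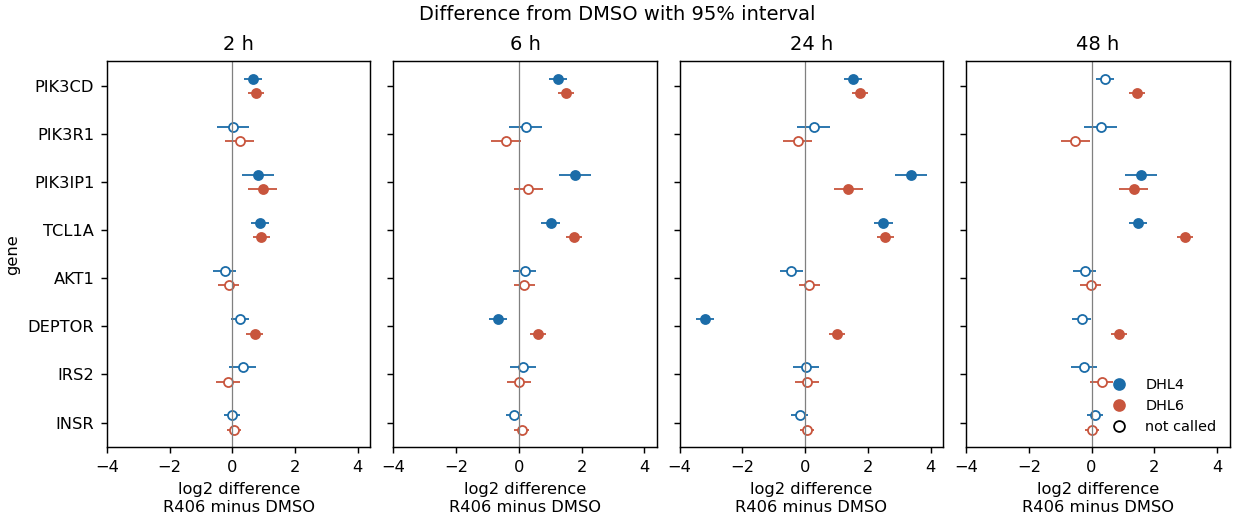
Log2 difference R406 minus DMSO (horizontal axis) for the 8 measured genes (vertical axis) at each time, DHL4 in blue and DHL6 in red; bars are 95% intervals of the limma fit and open circles mark values that were not called. DEPTOR at 24 h lies at -3.19 in DHL4 and 1.00 in DHL6, and PIK3R1, AKT1, IRS2 and INSR have open circles throughout.

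Counted by contrast, limma called 3 of the 8 measured genes in DHL4 at 2 h, where 9.48% of all genes were called, 4 at 6 h (12.8% of all genes), 4 at 24 h (29.5%) and 2 at 48 h (7.33%). In DHL6 it called 4 at 2 h (5.29% of all genes), 3 at 6 h (8.26%), 4 at 24 h (14.4%) and 4 at 48 h (23.3%). The background thus differs several-fold between contrasts, and at 24 h in DHL4 a call was common among all genes. Because the genes were chosen with earlier results of these data known, these counts are no independent test of the group. The DHL4 count at 2 h fell to 1, TCL1A, in the fit of only the compared groups and without the second DHL4 DMSO array. The median difference of the 8 genes was 0.15 in DHL4 at 24 h, beside 0.03 over all genes, and 0.57 in DHL6, beside 0.02. No called difference from DMSO had overlapping arrays. Arrays without overlap were found for 50.2% of all genes in DHL4 at 24 h and for 35.6% in DHL6. No such share is given for the other times, so a lack of overlap at those times has no background beside it.

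The lines already differed in DMSO, where limma called 4 of the 8 genes and 20.6% of all genes. DEPTOR was higher in DHL6 by 0.66 ± 0.14 (limma adjusted p = 0.000859). TCL1A was lower there by a difference of -1.63 ± 0.14 (limma adjusted p = 2.74e-09), PIK3CD by -0.57 ± 0.14 (0.00308) and AKT1 by -0.52 ± 0.18 (0.0422). Without the first DHL4 DMSO array, the PIK3CD and AKT1 calls were lost (-0.51 and -0.56, limma adjusted p = 0.0570 and 0.122), which left 2. The AKT1 call was also lost without each of the other DMSO arrays in turn and with quantile normalization, median centring, a trended robust prior or the replicate block, with adjusted p-values from 0.0501 to 0.227 in limma. PIK3IP1 differed by -0.08 ± 0.25, less than its spread.

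The responses of the lines were then compared directly, as DHL6 minus DHL4. At 2 h limma called 0 of the 8 genes (1 at an unadjusted p below 0.05) and 1.76% of all genes. At 6 h it called 3 (7.04% of all genes): DEPTOR at 1.27 ± 0.19 (limma adjusted p = 5.71e-05), PIK3IP1 at -1.49 ± 0.33 (0.00509) and TCL1A at 0.74 ± 0.19 (0.0170). Without the second DHL4 DMSO array only the DEPTOR call was left, and the TCL1A call was also lost without DHL6 DMSO replicate 3 (0.62, limma adjusted p = 0.0622). At 24 h it called 2 (16.4% of all genes): DEPTOR at 4.19 ± 0.19 (limma adjusted p = 5.34e-14), which ranked 3 among all genes with a higher response in DHL6, and PIK3IP1 at -2.004 ± 0.335 (8.57e-05). At that time PIK3CD and TCL1A had response differences of 0.22 and 0.07, with 95% intervals from -0.16 to 0.60 and from -0.33 to 0.47. At 48 h it called 3 (5.08% of all genes): TCL1A at 1.50 ± 0.19 (limma adjusted p = 2.36e-05), DEPTOR at 1.20 ± 0.19 (0.000274) and PIK3CD at 1.02 ± 0.18 (0.00111). The second probe sets gave -1.04 for PIK3IP1 at 6 h (limma adjusted p = 0.0535, not called) and -1.93 at 24 h, and 0.67 and 1.26 for TCL1A at 6 and 48 h, both called. In the fit of all probe sets, limma called 5.58% at 6 h, 13.9% at 24 h and 3.99% at 48 h. The actin 3′ to 5′ difference was largest in DHL6 at 48 h, and its part in these values was not tested.

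Comparisons within the R406 arrays do not use DMSO. From 2 to 24 h in DHL4, limma called 4 of the 8 genes and 30.0% of all genes: PIK3CD rose by 0.88, PIK3IP1 by 2.56 and TCL1A by 1.61, and DEPTOR fell by 3.42. From 24 to 48 h in DHL4 it called the same 4 and 25.1% of all genes, each in the opposite direction: PIK3CD fell by 1.11 (limma adjusted p = 9.05e-08), PIK3IP1 by 1.80 (5.10e-07) and TCL1A by 1.01 (8.53e-07), and DEPTOR rose by 2.87 (7.28e-15). In DHL6 it called 2 from 2 to 24 h (8.77% of all genes), PIK3CD at 0.99 and TCL1A at 1.64. From 24 to 48 h in DHL6 it called 1 (6.72% of all genes), TCL1A at 0.42 ± 0.13 (limma adjusted p = 0.0494). That call was lost in most alternatives, among them the fit without any one of the 24 h arrays or without 48 h replicate 1 or 3 (0.33 to 0.44). The second TCL1A probe set gave 0.35 there and was not called (limma adjusted p = 0.0845), in a fit that called 6.04% of all probe sets.

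Likeness of pattern was measured as Pearson's r over the 10 group means, each line centred on its own mean, as a description of points that share DMSO arrays and a fit. TCL1A was like PIK3CD at 0.86 and like PIK3IP1 at 0.80, PIK3CD and PIK3IP1 were alike at 0.75, and DEPTOR ran against PIK3IP1 at -0.67. That last value pools the lines. In DHL4 at 24 h DEPTOR had its lowest mean (4.20) and PIK3IP1 its highest (7.88). In DHL6 both were higher at 24 h than in DMSO, DEPTOR at 9.05 against 8.05 and PIK3IP1 at 5.79 against 4.42. Candidates were not all genes but the 2367 others called against DMSO at 1 or more times in each line. Of these, the genes most like PIK3CD were SLC2A5 (0.99), MME (0.96) and BMP7 (0.96). For PIK3IP1 they were RBM5 (0.99), ADPRM (0.99) and ATG2A (0.98), and for TCL1A they were RPL35A (0.97), TPCN1 (0.96) and EIF3G (0.95). For DEPTOR they were GOT2 (0.96), VDAC2 (0.92) and DNPH1 (0.92).

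Beyond these members, 82 other genes of the pathway were listed by role, and 71 were measured. These lists too were made with earlier results of the data known. In DHL4, limma called 5 higher and 11 lower at 2 h (2.67% and 6.81% of all genes), 11 higher and 8 lower at 6 h (6.42% and 6.36%), 19 higher and 15 lower at 24 h (13.0% and 16.5%), and 7 higher and 5 lower at 48 h (3.53% and 3.80%). In DHL6, it called 4 higher and 4 lower at 2 h (2.14% and 3.16% of all genes), 4 and 8 at 6 h (3.14% and 5.12%), 12 and 8 at 24 h (6.20% and 8.17%), and 10 and 11 at 48 h (8.39% and 14.9%). The split moved with the scaling. Quantile normalization gave 10 higher and 10 lower in DHL4 at 2 h and 16 and 8 in DHL6 at 48 h. Centring on array medians gave 5 and 12 in DHL6 at 48 h and 6 and 7 in DHL4 at 48 h. In DHL4 at 24 h centring also turned the majority, with 15 higher and 16 lower. By role at 24 h, the 15 measured genes of the TSC and mTOR complexes had 2 higher and 8 lower in DHL4 and 2 higher and 4 lower in DHL6 (1 and 4 after centring). With quantile normalization they had 2 higher and 6 lower in DHL4 and 2 higher and 3 lower in DHL6. The 10 AKT substrates and FOXO factors had 5 higher and 0 lower in DHL4 (4 and 1 after centring) and 3 higher and 0 lower in DHL6. The 16 measured receptors and adaptors had 5 higher and 2 lower in DHL4 and 2 and 2 in DHL6, which became 2 and 2, and 1 and 2, after centring. The 8 other PI3K subunits had 2 higher and 1 lower in DHL4 and 1 and 1 in DHL6, the 7 genes of AKT and its activators 2 and 1 in both lines, and the 15 phosphatases and brakes 3 and 3 in DHL4 and 2 and 0 in DHL6.

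**Figure D4:**
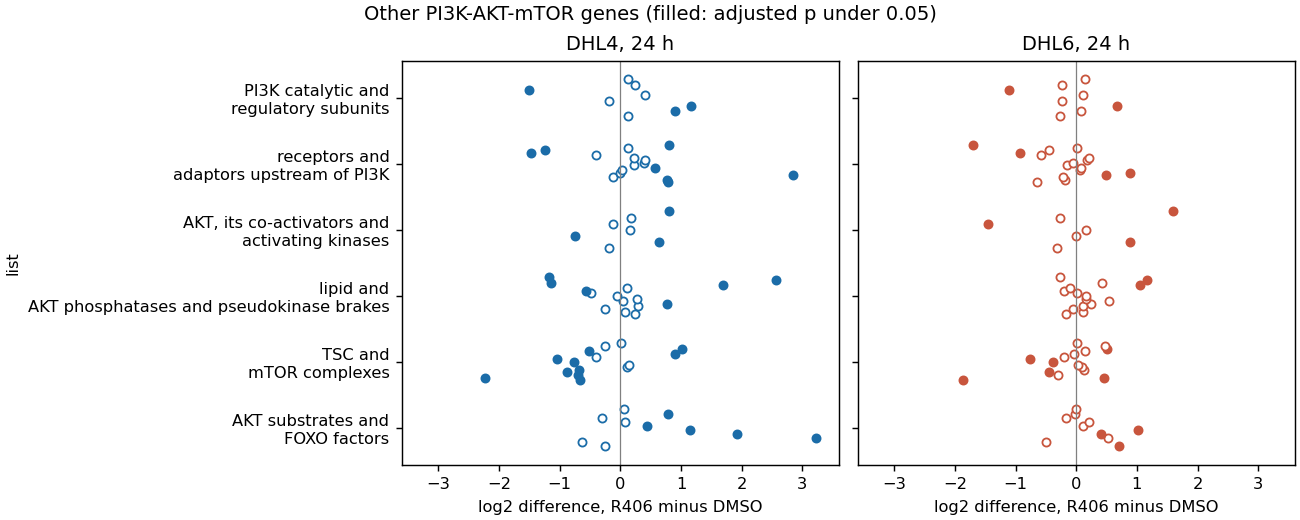
Log2 difference R406 minus DMSO at 24 h (horizontal axis) for the 71 other measured genes of the pathway, grouped by role (vertical axis), in DHL4 (blue) and DHL6 (red); each circle is a gene and filled circles were called. The TSC and mTOR row has 8 filled circles below 0 in DHL4 and 4 in DHL6, and 2 above 0 in each line. Of all genes, 16.5% were called lower in DHL4 and 8.17% in DHL6.

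DDIT4, an inhibitor of mTOR complex signalling that responds to stress, was the pathway gene with the largest fall at 2 h in both lines. It read 7.65 and 7.63 in DHL4 DMSO and 4.87, 4.87 and 4.68 at 2 h, with no overlap, and 7.06, 6.91 and 6.81 in DHL6 DMSO and 5.74, 5.77 and 5.65 at 2 h. In DHL4 the fall was -2.84 ± 0.18 at 2 h (limma adjusted p = 4.90e-11), and it shrank to -1.81 at 6 h, -0.67 at 24 h and -0.35 at 48 h (0.321, not called). In DHL6 the values were -1.21 ± 0.16 at 2 h (limma adjusted p = 1.37e-05), -1.05 at 6 h, -1.87 at 24 h and -1.30 at 48 h, all called. The responses differed by 1.63 at 2 h and by -1.20 at 24 h (limma adjusted p = 0.000202 and 0.000747). DDIT4, a brake at mTOR as DEPTOR is, was thus lowest in DHL4 at 2 h, where DEPTOR was not called, and was called lower in DHL6 at every time at which DEPTOR was called higher.

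TCL1B, a paralogue of TCL1A and its neighbour among protein-coding genes in the RefSeq table, read 4.53, 4.66 and 5.17 in DHL6 DMSO and 6.32, 7.11 and 6.97 at 48 h, without overlap. In DHL6 it was higher by 0.78 ± 0.22 at 6 h (limma adjusted p = 0.0253), 1.59 ± 0.22 at 24 h (7.91e-06) and 2.01 ± 0.22 at 48 h (2.25e-07), and its value at 2 h was -0.02. In DHL4 it was called at 24 h alone (0.81 ± 0.25, limma adjusted p = 0.0131), from 2.94 and 3.49 in DMSO to 4.15, 4.02 and 3.88. The responses of TCL1B differed between the lines at 48 h by 2.17 ± 0.33 (limma adjusted p = 0.000199), and those of TCL1A by 1.50. Whether probes of one gene bind transcripts of the other was not tested.

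CBLB, a ubiquitin ligase that restrains signalling through PI3K adaptors, read 4.29 and 3.34 in DHL4 DMSO and 6.75, 6.47 and 6.75 at 24 h. In DHL6 DMSO it already read 7.67, 7.59 and 7.64. It was higher in DHL4 by 1.48, 2.03, 2.84 and 1.49 at 2, 6, 24 and 48 h, all called, and in DHL6 by 0.49 at 24 h (limma adjusted p = 0.0498) and 0.61 at 48 h (0.00850). The responses of CBLB differed at all 4 times, most at 24 h (-2.35 ± 0.25, limma adjusted p = 1.41e-07). A dim second CBLB probe set, at a mean of 2.76, showed no call in DHL4 at any of the 4 times. CDKN1B, a cell cycle inhibitor whose gene FOXO factors activate and whose protein AKT phosphorylates, was higher in DHL4 by 1.25 at 2 h, 2.02 at 6 h and 3.23 ± 0.29 at 24 h (limma adjusted p = 1.98e-09), and was not called at 48 h (0.68). In DHL6 CDKN1B was not called at any time (at most 0.71, limma adjusted p = 0.0515 at 48 h), and the responses differed at 6 and 24 h (-1.46 and -2.70). EIF4EBP1, a repressor of translation that mTOR phosphorylates, fell in DHL4 by 0.83 at 6 h and by 2.24 at 24 h (limma adjusted p = 9.31e-13). In DHL6 EIF4EBP1 was higher by 0.42 at 2 h, 1.28 at 6 h (limma adjusted p = 2.24e-08) and 0.46 at 24 h. Its responses differed by 2.69 ± 0.18 at 24 h (limma adjusted p = 6.25e-11), the same sign as for DEPTOR.

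PPP2R5C, a regulatory subunit of the phosphatase PP2A, was called higher at all 4 times in DHL4 (0.50, 1.15, 1.69 and 0.58) and at 2, 24 and 48 h in DHL6 (0.79, 1.05 and 0.74). Its probe sets disagreed: a second one was called at 2, 6 and 24 h in DHL4 and at 2, 24 and 48 h in DHL6, whereas the remaining one was called at none of the 4 times in either line. The serum-induced kinase SGK1, a relative of AKT, was lower in DHL6 by -1.20 at 6 h, -1.46 at 24 h and -1.62 at 48 h, and was not called in DHL4, and its responses differed at these 3 times. SGK1 read 3.96 and 4.23 in DHL4 DMSO and 8.14, 8.26 and 8.68 in DHL6 DMSO. The median of all deposited values was 3.18. Whether the lower starting level of SGK1 in DHL4 limited a fall there was not tested. The exchange factor VAV3 was lower in DHL6 by -1.69, -1.71 and -1.88 at 6, 24 and 48 h, but higher in DHL4 at 24 h by 0.80 (limma adjusted p = 0.0304), and its responses differed at these times too. VAV3 was already dimmer in DHL4 DMSO (4.06 and 3.84) than in DHL6 DMSO (5.42, 5.61 and 5.19). Whether that limited a fall in DHL4 was not tested. A second VAV3 probe set gave smaller falls in DHL6, -0.44 at 6 h (not called), -0.54 at 24 h and -0.52 at 48 h.

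TRIB2, a pseudokinase, was higher in DHL4 at 24 h by 2.57 ± 0.26 (limma adjusted p = 1.16e-08) and in DHL6 by 1.16 at 24 h and 1.10 at 48 h, and its responses differed at 24 h (-1.41, limma adjusted p = 0.00451). A second TRIB2 probe set was called in DHL6 at 24 h (0.97) but not at 48 h (0.50). Its relatives TRIB3 and TRIB1 were lower in DHL4 at all 4 times, TRIB3 by -1.52, -1.50, -1.18 and -1.27 and TRIB1 by -1.17, -1.18, -1.15 and -1.13. In DHL6 TRIB3 was lower at 48 h (-0.85) and TRIB1 was not called.

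TSC1, which restrains mTOR complex activity, was higher in DHL4 by 0.76 at 6 h, 1.02 at 24 h and 1.19 at 48 h, and in DHL6 by 0.87 at 2 h, 0.51 at 24 h (limma adjusted p = 0.0470) and 0.50 at 48 h (0.0341). SH2B2, an adaptor of the insulin receptor, was lower in DHL6 at all 4 times, by -0.93, -0.75, -0.92 and -1.56, and in DHL4 by -0.74 at 6 h and -1.47 at 24 h. Its responses differed at 48 h (-1.44, limma adjusted p = 0.000704). PIK3R3, a further regulatory subunit, was lower in DHL4 by -1.87 at 2 h, -1.06 at 6 h and -1.50 at 24 h, and in DHL6 by -1.05, -1.11 and -1.09 at 6, 24 and 48 h (-0.86 at 2 h, limma adjusted p = 0.0549, not called). No response difference of PIK3R3 was called by limma at any time. Its second probe set, at a mean of 2.87, showed no call in DHL4 at 2 or 24 h.

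**Figure D5:**
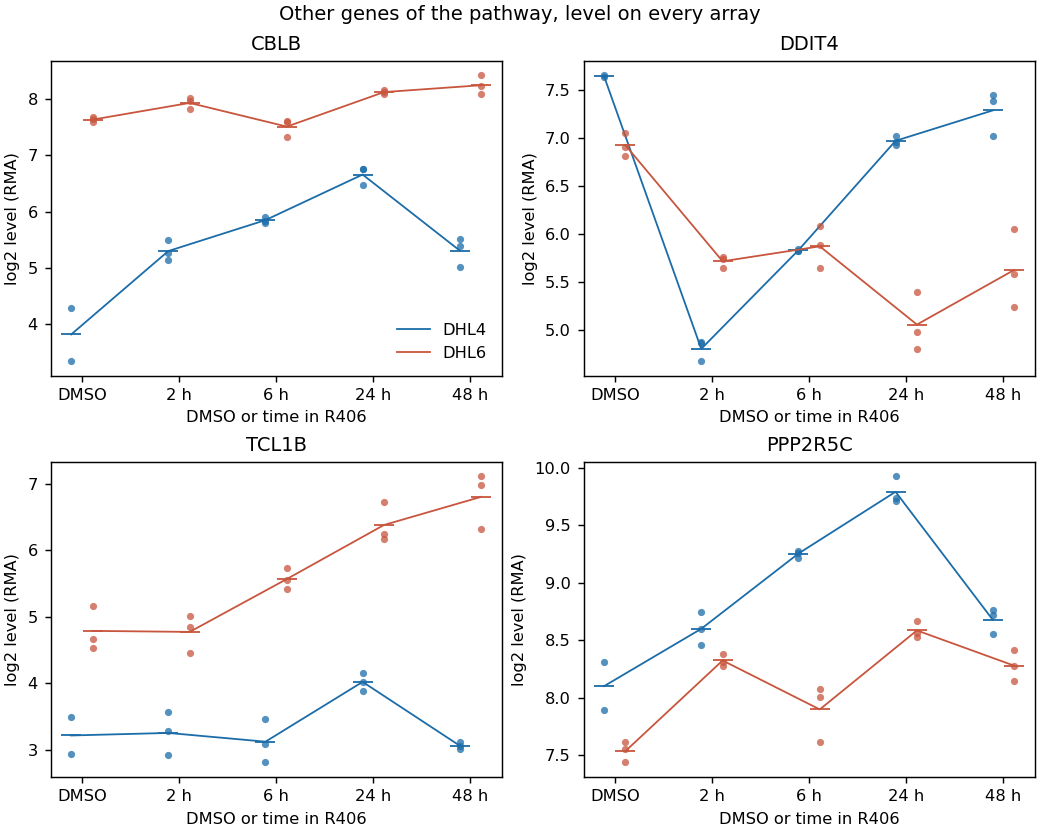
Log2 level (vertical axis, RMA, a separate range in each panel) of CBLB, DDIT4, TCL1B and PPP2R5C on every array, in DMSO and at each R406 time (horizontal axis), with DHL4 in blue and DHL6 in red; points are arrays and bars are group means, joined by lines. DDIT4 falls to 4.81 in DHL4 at 2 h and is back at 7.29 by 48 h, whereas in DHL6 its R406 group means stay at or below 5.87, against 6.93 in DMSO.

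FOXO1 and FOXO3, the AKT-restrained transcription factors, are added after their values were seen. They fall outside the rule by which the other pathway genes were named, and FOXO4, also measured, is not described. Values of FOXO1 and FOXO3 under other scalings or from further probe sets are not given here. FOXO1 was higher at 24 h by 1.92 ± 0.13 in DHL4 (limma adjusted p = 1.08e-11) and by 0.41 ± 0.12 in DHL6 (0.0145), and FOXO3 by 1.15 ± 0.28 (0.00185) and 1.01 ± 0.25 (0.00547). At the other times FOXO1 was called in DHL4 at 6 h (0.81) and 48 h (0.67), and neither gene had a further call against DMSO.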

How the data were processed

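Gene expression of 29 array samples was analysed. Per the submitters' processing notes, RMA made the deposited log2 values, 1 for each probe set, with no version or normalization batch named. They span 1.99 to 13.5. Probe sets were named from the platform annotation, with symbols updated through Entrez identifiers: 19724 had 1 symbol (19707 matched), 568 several and 1923 none listed; 62 array controls were left out.

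For each of 12165 genes, the single-symbol probe set with the highest mean stood for the gene. Means of the 10 groups were fitted over all 29 arrays by limma 3.58.1 under R 4.3.3 (lmFit, then eBayes), which left 19 degrees of freedom for the residuals and added 5.05 from the prior. Each of 17 contrasts was adjusted by Benjamini-Hochberg over all genes and called at an adjusted p under 0.05. Further probe sets were tested in the same model over all 22215 non-control probe sets. No filter on low values was applied. In simulated data of the design of DHL4 at 24 h (12165 genes), the fit called 14 of 67 genes changed by a log2 of 0.5, 62 of 67 changed by 1 and 65 of 66 changed by 2, with 9 false calls. No other gene was changed in that simulated contrast, whereas 29.5% of all genes were called in the real one. The adjusted threshold was therefore stricter in the simulation, and these shares need not hold for the real data.

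All members were named. Of the listed pathway genes, those named had the 2 largest called differences each way in a contrast of a line with DMSO, or were called with the same sign in both lines at 3 or more times. FOXO1 and FOXO3 are exceptions, named after their values were seen. The members and lists were chosen with earlier results of these data known. Sequences come from RefSeq tables of GRCh38.p14; no genome was used here. Alternatives were quantile normalization, centring on array medians, all probe sets, dim genes left out, the mean of a gene's probe sets, a trended robust prior, the replicate number as a block, only the compared groups, and each array left out in turn.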

Additional observations from a re-analysis of the deposited data

Results flagged for a closer look

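The response to R406, relative to the DMSO arrays of the line, differed between DHL6 and DHL4 in 8 results, each tested as the difference itself (DHL6 minus DHL4, limma, adjusted over all genes). DEPTOR, the mTOR inhibitor, had a higher response in DHL6 at 6 h by 1.27 (limma adjusted p = 5.71e-05), at 24 h by 4.19 (5.34e-14) and at 48 h by 1.20 (0.000274). At 6 and 24 h it was lower than DMSO in DHL4 and higher in DHL6. TCL1A, the AKT co-activator, had a higher response in DHL6 at 6 h by 0.74 (limma adjusted p = 0.0170) and at 48 h by 1.50 (2.36e-05), and its second probe set gave 0.67 and 1.26. PIK3CD, the catalytic subunit, had a higher response in DHL6 at 48 h by 1.02 (limma adjusted p = 0.00111), where its difference from DMSO was 1.44 in DHL6 and 0.42 in DHL4. PIK3IP1, the brake on PI3K, had a lower response in DHL6 at 6 h, at -1.49 (limma adjusted p = 0.00509), and at 24 h, at -2.004 (8.57e-05), and its second probe set gave -1.04 (0.0535, not called) and -1.93. No other contrast was used to mark results here, and groups of 2 or 3 arrays are too small for a test of single arrays that stand apart.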

How the results depend on the processing

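No called direction of the 8 genes reversed under any alternative run. In DHL4 at 2 h the count of called genes went from 3 to 1 with only the compared groups, and to between 1 and 3 with an array left out. For the response difference at 6 h, leaving out an array gave 1 to 3 calls against 3, and for the DMSO difference 2 to 3 against 4. For DHL6 from 24 to 48 h, the single TCL1A call became 0 with array median centring, all probe sets, the replicate block, only the compared groups, or without the 3 arrays of lowest upper quartile together (DHL6 48 h replicate 1, DHL4 2 h replicate 3, DHL6 6 h replicate 3; chosen after seeing the data), and 0 to 1 with an array left out. The cause was not tested. Of the other counts of called genes among the 8, quantile normalization, dim genes left out, the mean of probe sets and the trended robust prior moved 0 of 17 by more than 1.5 times. Same-numbered arrays did not deviate together on average (mean r from -0.04 to 0.03, single pairs from -0.44 to 0.23). With 2 or 3 arrays in a group, this cannot exclude that the replicate numbers pair the arrays. The block otherwise took the call of PIK3IP1 in DHL4 at 2 h and of AKT1 in DMSO. It gave one to PIK3CD in DHL4 at 48 h (0.47, limma adjusted p = 0.0458), as did quantile normalization (0.46, 0.0196). Over all genes, only the compared groups gave 510 calls against 1153 in DHL4 at 2 h, 1727 against 2831 in DHL6 at 48 h, 404 against 618 for the 48 h response difference and 31 against 817 for DHL6 from 24 to 48 h. With an array left out the 48 h response difference ranged from 236 to 1239 calls and that at 2 h from 102 to 252 against 214. Fits over all probe sets test more features and gave more calls, for example 5785 against 3593 in DHL4 at 24 h. Signal near the RMA floor limits what INSR, IRS2 and the dim second probe sets can show. A log2 change of 0.5 was often missed in the simulated data, where far fewer genes changed than were called in DHL4 at 24 h.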
